A study of Zea mays with 2 samples.

Results

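A total of 2669 of the 43118 chromatin loops in the deposited lists for maize leaf skipped at least 1 whole domain. Members were chosen by their coordinates alone, in each replicate on its own: loops of chromosomes 1 to 10 with anchor starts less than 500 kb apart, whose anchor midpoints lay in different level 0 domains with at least 1 complete level 0 domain between them. Replicate 1 held 828 such loops and Replicate 2 held 1841. The anchor positions, the loop length and the level 0 domains therefore defined the set, and what follows directly from them is given as a description.

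Leaves of the maize inbred B73 were taken at the v04 stage from greenhouse plants, with no treatment or transgene, and used for Hi-C. There were 2 biological replicates of this 1 condition, and whole leaf was used, so the values are averages over all leaf cell types. The authors called loops and domains in each replicate separately. The total number of contacts per library is not held in the lists, so depth is given as the contacts behind each loop.

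Hi-C links pieces of chromatin that touch inside the nucleus and sequences the linked pairs. A loop is a pair of short segments, the anchors, that touch more often than the surrounding sequence does, and a domain is a stretch of chromosome whose contacts stay mostly within it. The caller used here nests domains in levels, where level 0 is the outermost layer and sub-domains lie within it. In mammals many loops close a domain at its 2 boundaries and depend on the insulator protein CTCF and on cohesin. Plants lack CTCF, and in large plant genomes loops often join gene-rich, active stretches that are separated by long blocks of silent transposable elements. A loop that passes over a complete domain joins segments on either side of it.

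Of the loops under 500 kb, members made up 5.14% in Replicate 1 (828 of 16114 loops, 95% Wilson interval 4.81 to 5.49%) and 7.46% in Replicate 2 (1841 of 24662, interval 7.14 to 7.80%). The mean was 6.30% ± 1.65 (SD, n = 2). Intervals treat loops as independent, although loops share anchors, and cover counting error only. Most other loops stayed inside 1 level 0 domain, with 68.5% of loops in Replicate 1 and 65.2% in Replicate 2. Loops that joined 2 domains with no complete domain between them accounted for 25.7% and 26.2%, in the same order of replicates. Loops that skipped a domain were thus the least frequent of the 3 classes in both replicates.

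Skipping loops were long. Their median length was 275 kb in Replicate 1 (quartiles 190 and 350 kb) and 260 kb in Replicate 2 (quartiles 190 and 350 kb), against 110 kb for other loops under 500 kb in each replicate. The shortest spanned 65 kb in Replicate 1 and 60 kb in Replicate 2, where the smallest level 0 domains were 50 kb. The share of loops that skipped a domain increased with length. Among loops of 50 to 100 kb it was 0.384% in Replicate 1 and 0.463% in Replicate 2, and among loops of 250 to 300 kb it was 13.9% and 20.2%. Among the longest, from 450 to 500 kb, 28.1% of loops skipped a domain in Replicate 1 (66 of 235) and 32.9% in Replicate 2 (113 of 343). Even at this length most loops did not pass over a complete level 0 domain. A longer loop has more room for a complete domain, so this increase follows in part from the rule.

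**Figure D1:**
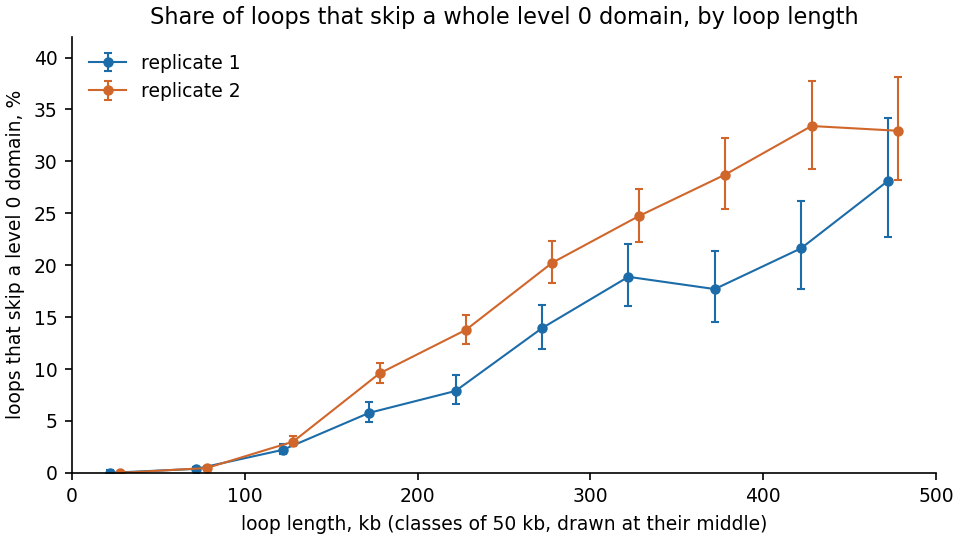
Share of loops (%) that skipped at least 1 whole level 0 domain, in 50-kb classes of loop length (kb), for each replicate, with 95% Wilson intervals as bars. The share was 0 below 50 kb and reached 28.1% in Replicate 1 and 32.9% in Replicate 2 from 450 to 500 kb.

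Anchor size differed between the replicates and moved with the share of members. The list of Replicate 1 held 3 anchor sizes, with members making up 1.49% of loops with 5-kb anchors (85 loops), 6.30% of those with 10-kb anchors (424 loops) and 8.67% of those with 25-kb anchors (319 loops). Members of Replicate 1 with 5-kb anchors had a median length of 150 kb, against 325 kb for those with 25-kb anchors. The list of Replicate 2 used here held 10-kb anchors only. The replicates were also called with different versions of the software, so software version, anchor size and replicate cannot be told apart in any difference between the lists.

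The 500-kb limit left out a part of the loops that passed over a domain. In Replicate 1, 375 loops of 500 kb or more met the rest of the rule, and in Replicate 2, 532 did. Just inside the limit, Replicate 1 had 2 loops from 480 to 490 kb with a median of 25 contacts and 1 loop from 490 to 500 kb with 16 contacts, and Replicate 2 had 18 and 25 loops with medians of 14.5 and 15 contacts. Just outside it, from 500 to 510 kb, were 27 loops in Replicate 1 with a median of 26 contacts, and 27 in Replicate 2 with a median of 15. In Replicate 1 these numbers do not show whether loops were fewer inside the limit. Its members with 25-kb anchors had lengths in steps of 25 kb, such as 450 and 475 kb. Loops with such anchors could thus measure 500 kb, but could not fall in the classes from 480 to 500 kb. The next class, from 510 kb, held 5 loops in Replicate 1 with a median of 12 contacts. The part of anchor size in these numbers was not tested. In Replicate 2, with 10-kb anchors only, the numbers on either side were alike.

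Most members passed over a single domain. In Replicate 1, 729 members (88.0%, interval 85.7 to 90.1%) skipped 1 domain, 88 skipped 2 and 11 skipped 3. In Replicate 2, 1551 members (84.2%, interval 82.5 to 85.8%) skipped 1 domain, 264 skipped 2, 24 skipped 3 and 2 skipped 4. Loops that skipped more domains were longer. Median length in Replicate 1 was 260, 350 and 400 kb for 1, 2 and 3 skipped domains, and in Replicate 2 it was 250, 330 and 390 kb. The contacts behind them did not change in the same way in both replicates. In Replicate 1 median contacts were 20, 21 and 27 for 1, 2 and 3 skipped domains, at 5.08, 4.67 and 3.86 times the expected number. In Replicate 2 they were 21, 18 and 17, at 5.09, 5.78 and 6.49 times. Replicate 1 pools anchor sizes that differ in both measures, with median contacts of 13, 16 and 31 in members with 5-, 10- and 25-kb anchors, and its longer members had the larger anchors. The part of anchor size in the opposite course of the replicates was not tested.

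Skipped domains filled most of the distance between the anchors of the median member. They added up to a median of 140 kb per member (62.4% of the gap between the anchors) in Replicate 1, and 150 kb (64.7%) in Replicate 2. At least 1 of the anchors lay within 10 kb of the skipped domains in 76.3% of members of Replicate 1 (632 loops) and 83.1% of members of Replicate 2 (1530 loops). Both anchors did so in 20.3% and 20.4%. A member therefore mostly started or ended beside the domain it passed over, while the other anchor lay deeper in the neighbouring domain. Both anchors directly adjoined the skipped domains in 75 members of Replicate 1 (9.06%) and 211 members of Replicate 2 (11.5%), so that these loops framed them from the outside.

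The rule placed the anchors in domains on either side of the skipped ones, but did not fix where in those domains. Anchor midpoints were nearer the boundary facing the skipped domains in 73.2% of 1656 anchors of Replicate 1 and 72.8% of 3682 anchors of Replicate 2. When the anchor's own domain was divided into 10 equal parts, the part next to the skipped domains held 49.6% of anchors in Replicate 1 and 49.1% in Replicate 2. The part at the far boundary held 11.3% and 12.9%, and each of the 8 parts between them held from 2.11 to 11.6%. Anchors of members thus lay at both edges of their domain more than in its middle, and mainly at the near edge. The length limit favours the near edge, because an anchor deep in a large domain makes a loop longer.

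**Figure D2:**
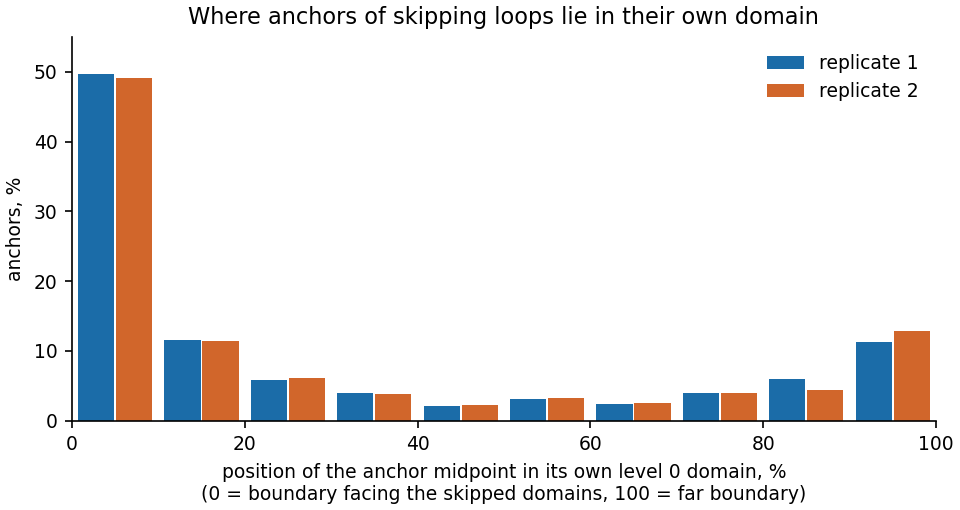
Position of anchors of skipping loops within their own level 0 domain divided into 10 equal parts, from the boundary facing the skipped domains (0%) to the far boundary (100%), as a share of anchors (%) in each replicate. The part next to the skipped domains holds 49.6% of anchors in Replicate 1 and 49.1% in Replicate 2, and that at the far boundary 11.3% and 12.9%.

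The position of anchors at boundaries is given as a description, since the rule used the anchors and the level 0 domains. An anchor was counted as at a level 0 boundary when it overlapped the 2 kb on either side of one. This held for 45.7% of member anchors in Replicate 1 (interval 43.3 to 48.1%) and 49.3% in Replicate 2 (interval 47.7 to 51.0%). Other loops, weighted to the same mix of 50-kb length classes and anchor sizes, had 25.7% and 25.4%. The difference was 22.0 ± 2.80 percentage points (SD, n = 2), and most of these other loops lay inside 1 domain. Loops joining 2 domains with none between came closer to the members, with 39.4% in Replicate 1 and 36.1% in Replicate 2, whereas loops inside 1 domain had 15.3% and 16.2%. Both anchors were at a boundary in 20.2% of members of Replicate 1 and 22.8% of members of Replicate 2, against 7.76% and 6.86% of other loops. Loops joining 2 domains with none between again came closer, with 14.2% and 11.3%.

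The 4 differences that follow, in contact ratio, loops called again, domains with a loop inside and shared anchors, were each tested over the 2 replicates by an exact sign-flip permutation test. All 4 had the same direction in both replicates. Each exact permutation p was 0.5 before and after Benjamini-Hochberg adjustment, the smallest two-sided value that 2 replicates allow. They are therefore reported as values with their spread.

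Members had a similar number of contacts to other loops of their length, over a lower background. The level 0 domains of the rule were called from the same libraries as this background. Contacts stay mostly within a domain, so a lower background between domains follows in part from the rule. The ratio, which divides by the background, shares this limit. Members of Replicate 1 had from 9 to 87 contacts, with a median of 20 and quartiles of 15 and 29. Members of Replicate 2 had from 10 to 148, with a median of 21 and quartiles of 17 and 28. Other loops, weighted as above, had medians of 22 and 23 contacts. The contacts expected from the donut-shaped neighbourhood around the loop had a median of 3.74 in members of Replicate 1 and 4.16 in members of Replicate 2, against 4.34 and 4.98 in other loops. The ratio of observed to expected contacts was 5.01 in members of Replicate 1 (quartiles 3.74 and 6.77) and 5.19 in members of Replicate 2 (quartiles 4.30 and 6.32), against 4.63 and 4.91. The difference in median ratio was 0.333 ± 0.0743 (SD, n = 2), which is small beside the spread among members. Against the expectation from the lower-left neighbourhood, another background of the caller, it was 0.524 in Replicate 1 and 0.142 in Replicate 2.

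Across the 3 classes the ratio and the background ran in opposite directions. Loops joining 2 domains with none between had a median ratio of 4.74 in Replicate 1 and 5.05 in Replicate 2, and loops inside 1 domain 4.57 and 4.81. Their expected contacts were 4.15 and 4.57 for the loops joining 2 domains, and 4.45 and 5.36 for those inside 1 domain. Members had the lowest expected contacts and the highest ratio in both replicates. By anchor size in Replicate 1, this ratio was 8.79 in members and 8.76 in other loops with 5-kb anchors, 5.98 and 5.35 with 10-kb anchors, and 3.50 and 3.17 with 25-kb anchors. The difference was thus found at 10 and 25 kb, and hardly at 5 kb, where only 85 members were measured.

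**Figure D3:**
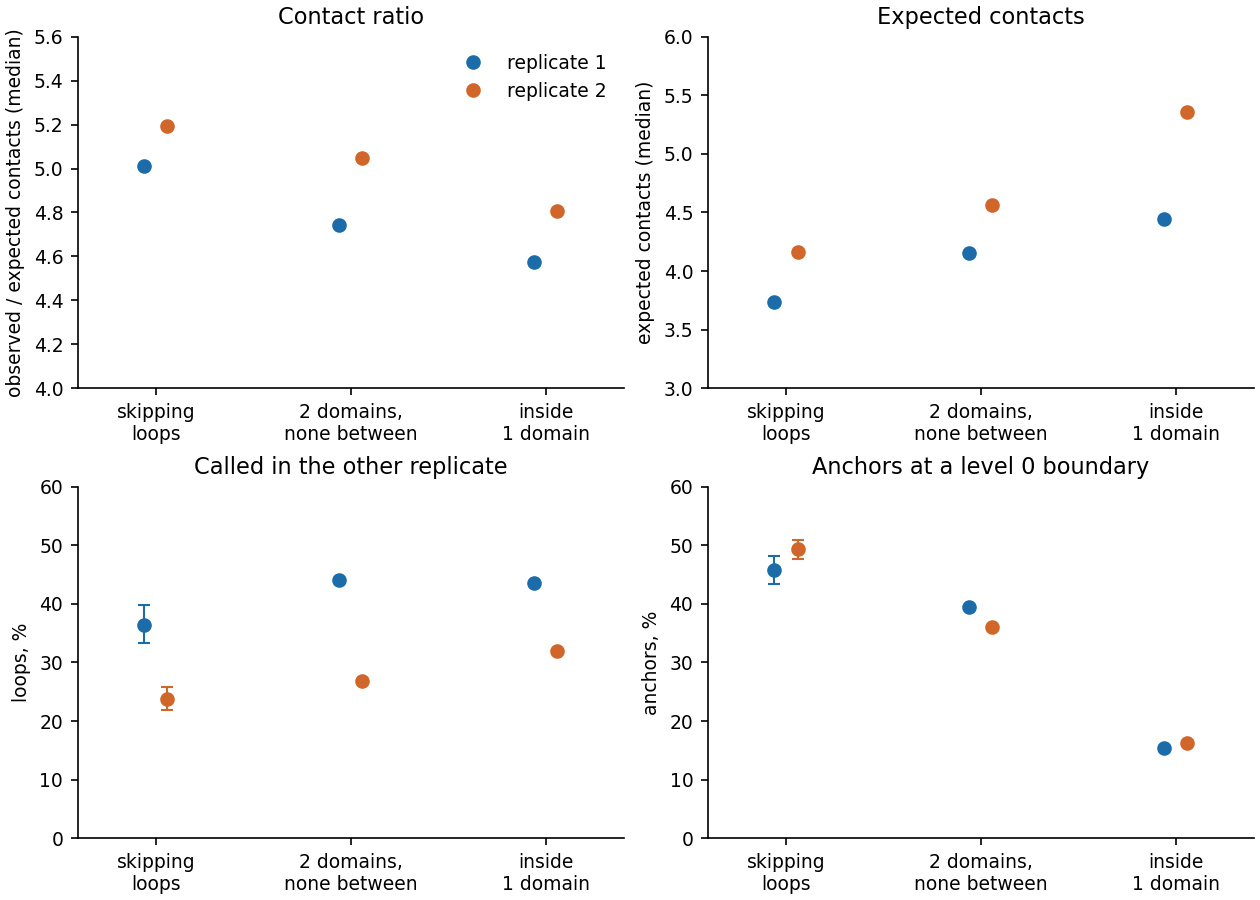
Skipping loops beside loops that join 2 level 0 domains with none between and loops inside 1 domain, weighted to the skipping loops' mix of length and anchor size: median ratio of observed to expected contacts, median expected contacts, loops called in the other replicate (%) and anchors at a level 0 boundary (%), with 95% Wilson intervals on the shares of skipping loops. Skipping loops have the highest ratio (5.01 in Replicate 1 and 5.19 in Replicate 2), the lowest expected contacts and the lowest share called in the other replicate.

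Members were called again in the other replicate less often than other loops of their length. A loop counted as called in both when each anchor overlapped that of 1 loop of the other replicate by at least 1 bp. This held for 302 members of Replicate 1 (36.5%, interval 33.3 to 39.8%) and 438 members of Replicate 2 (23.8%, interval 21.9 to 25.8%), against 43.8% and 29.5% of other loops weighted as above. The difference was −6.50 ± 1.11 percentage points (SD, n = 2). It was −3.78 points with 10-kb anchors only and −2.55 points when identical anchors were required. Loops joining 2 domains with none between were called again in 44.1% of cases in Replicate 1 and 26.9% in Replicate 2, and loops inside 1 domain in 43.6% and 32.0%. It was present at each anchor size of Replicate 1, with 55.3% of members and 60.5% of other loops with 5-kb anchors, 41.7% and 46.8% with 10-kb anchors, and 24.5% and 35.3% with 25-kb anchors.

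Being called again did not mean that the loop skipped a domain again. Of the 302 members of Replicate 1 found in Replicate 2, 116 skipped a domain there, 116 joined 2 domains with none between, 68 lay inside 1 domain and 2 had an anchor in no level 0 domain. Of the 438 members of Replicate 2 found in Replicate 1, 116 skipped a domain, 202 joined 2 domains with none between, 116 lay inside 1 domain and 3 had an anchor in no level 0 domain. The remaining 1 was at least 500 kb long there. Members that skipped a domain in both replicates were 14.0% of all members of Replicate 1 (interval 11.8 to 16.5%) and 6.30% of those of Replicate 2 (interval 5.28 to 7.50%).

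The domains differed between the replicates as well as the loops. When the loops were kept and set against the level 0 domains of the other replicate, 40.5% of members of Replicate 1 (335 loops) and 42.5% of members of Replicate 2 (782 loops) still met the rule. Among other loops under 500 kb, which include many short ones, 3.67% and 4.32% met it. A further 40.3% of members of Replicate 1 and 37.1% of members of Replicate 2 then joined 2 domains with no complete one between, and 17.8% and 19.6% lay within 1 larger domain. A change in the domain calls alone therefore moved more members out of the set than it kept.

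Of the 116 pairs of members found in both replicates, 90 passed over the same number of domains. Among all members, 88.0% in Replicate 1 and 84.2% in Replicate 2 skipped 1 domain. Most unrelated members would therefore have the same number too, and the 90 pairs do not show agreement between replicates. In 75 pairs at least 1 skipped domain had both boundaries within 10 kb in the other replicate, and in 61 all skipped domains did. Identical anchors were found in 67 pairs, with a median length of 270 kb. Median contacts at these were 17 in Replicate 1 and 26 in Replicate 2, and 66 of the 67 had more contacts in Replicate 2. Their median ratio to the expected contacts was 5.98 in Replicate 1 and 5.46 in Replicate 2, and it was higher in Replicate 2 in 27 of the 67. Contacts at identical positions were thus more numerous in Replicate 2, without a higher median ratio. Replicate 2 also had more contacts in total in the paper, and the part of depth was not tested.

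Of these 67 loops, 18 had at least 20 contacts in each replicate, and the 3 with the largest ratio in the replicate where it was smaller are described with their B73 AGPv4 coordinates. The first joined chr4:167600001-167610000 and chr4:168080001-168090000, 480 kb apart. It had 36 contacts in Replicate 1, 52.2 times the expected number, and 30 contacts in Replicate 2, 44.4 times. These were the largest ratios among members of each replicate, over fewer than 1 expected contact (0.690 in Replicate 1 and 0.676 in Replicate 2). In Replicate 1 the loop passed over 1 domain of 180 kb (chr4:167810001-167990000), which held no loop. In Replicate 2 it passed over 3 domains of 150, 70 and 120 kb (from chr4:167660001 to chr4:168000000), of which the first held 1 loop and the others none. The 320-kb domain that held the left anchor in Replicate 1 began at the same base in Replicate 2 but ended after 170 kb, which added a domain to those passed over.

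**Figure D4:**
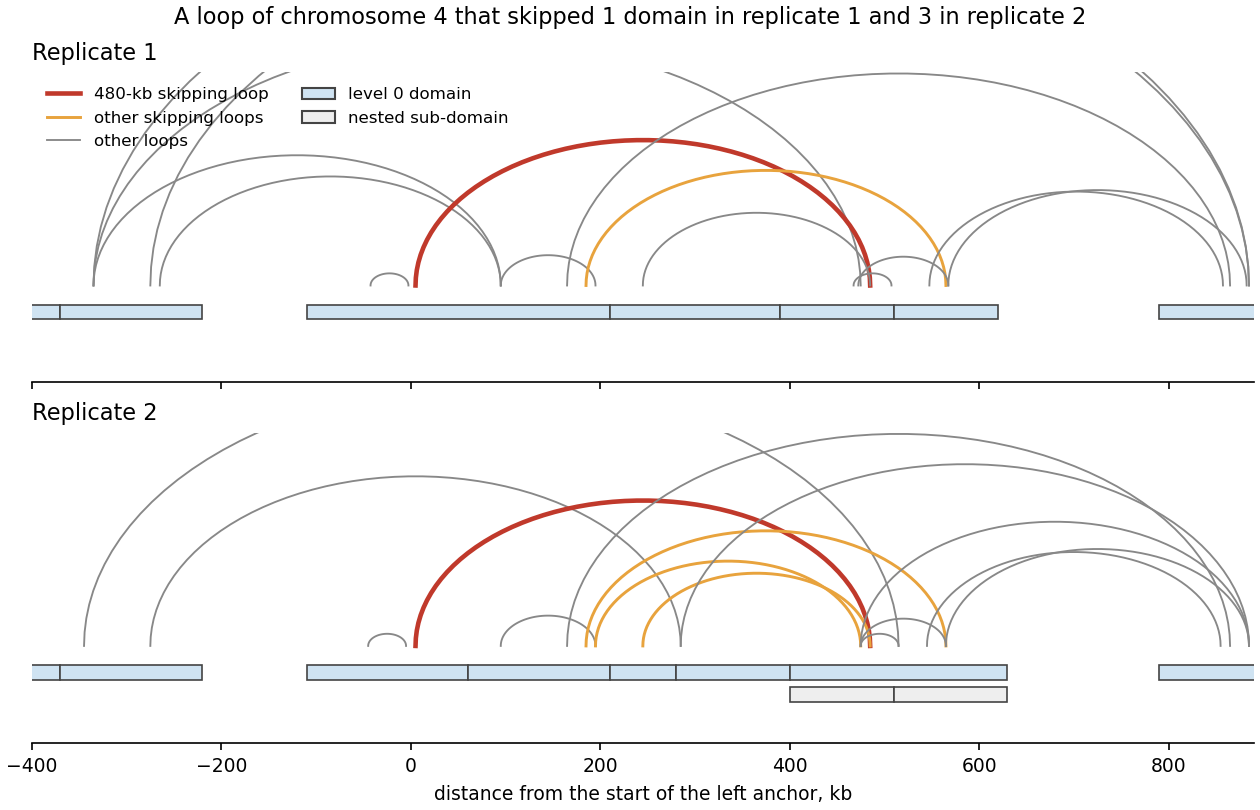
Loops (arcs) and domains (boxes) around the 480-kb skipping loop of chromosome 4 in each replicate, by distance (kb) from the start of its left anchor; arc height is proportional to loop length, arcs cut by the frame continue beyond it, and sub-domains are drawn below the level 0 domain that holds them. The same loop passes over 1 level 0 domain in Replicate 1 and over 3 in Replicate 2.

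The domains that the others passed over also differed between the replicates, in size or in number. The loop between chr3:44230001-44240000 and chr3:44570001-44580000 spanned 340 kb, with 23 contacts in Replicate 1 (8.02 times expected) and 50 contacts in Replicate 2 (8.56 times). It passed over 1 domain without loops in each replicate. That domain ended at the same base in both, beside the right anchor, and measured 120 kb in Replicate 1 (chr3:44450001-44570000) and 180 kb in Replicate 2 (chr3:44390001-44570000). The loop between chr10:63090001-63100000 and chr10:63450001-63460000 spanned 360 kb, with 21 contacts in Replicate 1 (9.18 times expected) and 30 in Replicate 2 (6.34 times). In Replicate 1 it passed over 2 domains of 80 and 230 kb (chr10:63130001-63210000 and chr10:63210001-63440000). In Replicate 2 it passed over 1 domain of 270 kb (chr10:63170001-63440000), inside which the 230-kb stretch was a sub-domain. None of the 3 domains held a loop.

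The rule for naming the loops that passed over the most domains chose a member in each replicate that was not called in the other. In Replicate 1, 11 members skipped 3 domains, and the one with the most contacts among them joined chr5:6175001-6200000 and chr5:6600001-6625000, 425 kb apart, with 42 contacts (3.49 times expected). It passed over domains of 180, 60 and 110 kb, none of which held a loop. In Replicate 2, 2 members skipped 4 domains, and the one with more contacts joined chr2:22930001-22940000 and chr2:23390001-23400000, 460 kb apart, with 12 contacts (6.59 times expected). Its domains measured 60, 60, 90 and 220 kb and held 1, 0, 1 and 3 loops.

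Most skipped domains were passed over by 1 member only, and a minority by 2 or more. The members skipped 764 distinct level 0 domains in Replicate 1, 10.7% of 7131, and 1453 of 7257 in Replicate 2 (interval 19.1 to 21.0%). Of these, 152 in Replicate 1 (19.9%) and 503 in Replicate 2 (34.6%) were skipped by 2 or more members. In Replicate 1 the domain skipped by the most members, chr3:206920001-206990000 (70 kb), was passed over by 4 members with 16, 37, 34 and 22 contacts. In Replicate 2 it was chr2:209570001-209640000 (70 kb), which was passed over by 6 members with 14 to 148 contacts. The member with 148 contacts, the most of any member, joined the segments directly on either side of the domain, 80 kb apart, at 12.8 times the expected number. Another 3 of the 6 shared its right anchor, and 1 other shared its left anchor. Neither domain held a loop. By the rule for naming them, another domain was tied with that of Replicate 1 and a further 2 with that of Replicate 2.

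Skipped domains were small. The median skipped domain measured 130 kb in both replicates. The lower quartile was 90 kb in both, and the upper one 180 kb in Replicate 1 and 190 kb in Replicate 2. Domains that held an anchor of a member without being skipped measured 210 kb at the median in Replicate 1 and 220 kb in Replicate 2, and all others 240 and 260 kb. The share of domains that were skipped fell with size, being 24.4% of level 0 domains of 50 to 100 kb in Replicate 1 and 43.4% in Replicate 2, and 5.39% and 10.6% of those of 300 to 350 kb. The length limit bounds the size of a skipped domain, so sizes are given as a description and other comparisons of domains are weighted to the same 50-kb size classes.

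Fewer skipped domains than other domains of their size held a loop. A loop lay inside a domain when both anchor midpoints did, a measure the rule did not use. In Replicate 1, 248 skipped domains (32.5%, interval 29.2 to 35.9%) held at least 1 loop, and in Replicate 2, 609 (41.9%, interval 39.4 to 44.5%). Of domains that no member skipped, weighted to the same sizes, 52.8% and 62.3% did. The difference was −20.3 percentage points in each replicate (SD 0.0115, n = 2). The replicates were this close at the main setting only. Among loops with at least 20 contacts the difference was −15.3 points in Replicate 1 and −26.9 points in Replicate 2. With 10-kb anchors only it was −10.6 points in Replicate 1 and stayed at −20.3 points in Replicate 2, so the size of the difference in Replicate 1 depended on its other anchor sizes. The unskipped domains include those that held an anchor of a member, of which 63.3% held a loop in Replicate 1 and 74.1% in Replicate 2. The rule placed these in their class by a loop anchor, so their share is a description. Domains with neither role held a loop in 50.1% and 55.6% of cases, and against these alone the difference was −17.7 points in Replicate 1 and −13.7 points in Replicate 2.

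This order held in each size class up to 350 kb in both replicates. Among domains of 100 to 150 kb, 30.8% of skipped domains held a loop in Replicate 1, against 56.3% of domains with an anchor of a member and 45.5% of those with neither role. In Replicate 2 the shares were 42.4%, against 71.8% and 50.4%. From 200 to 250 kb the intervals of skipped domains and of those with neither role overlapped in Replicate 2 (61.4%, interval 52.8 to 69.2%, against 66.6%, interval 62.1 to 70.8%), and did not in Replicate 1 (38.2%, interval 28.1 to 49.4%, against 65.4%, interval 61.5 to 69.1%).

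**Figure D5:**
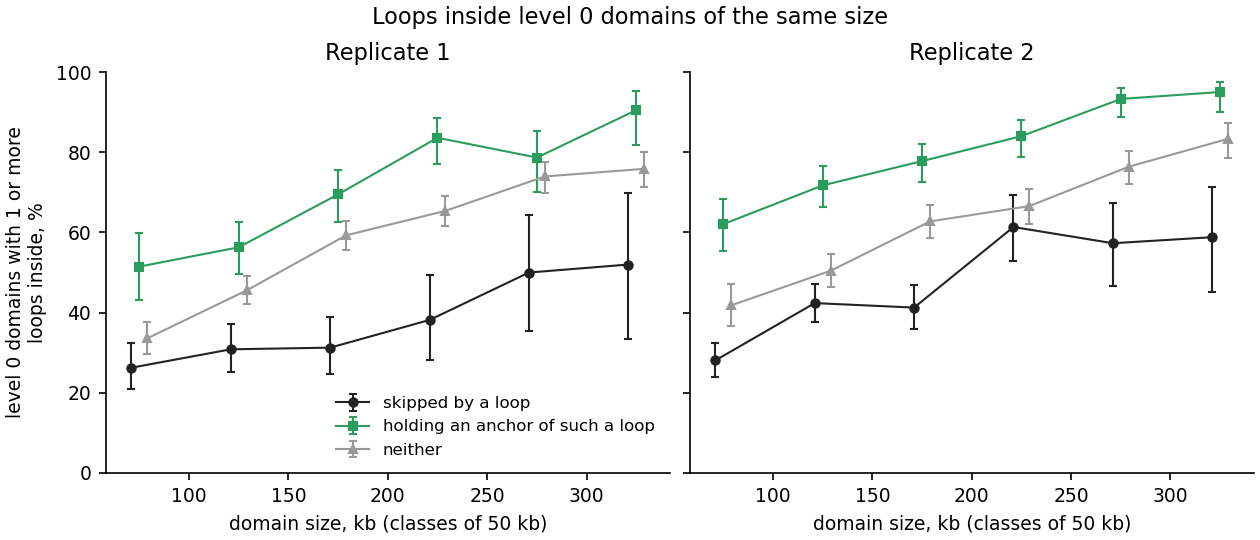
Share of level 0 domains (%) with at least 1 loop inside, in 50-kb classes of domain size (kb, drawn around the middle of each class), for domains skipped by a loop, unskipped domains holding an anchor of such a loop, and all others, with 95% Wilson intervals. In each class skipped domains are lowest and domains holding an anchor highest, as with 30.8%, 56.3% and 45.5% from 100 to 150 kb in Replicate 1.

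The density of loops gave the same order. Skipped domains held 2.87 loops per Mb in Replicate 1 and 5.08 in Replicate 2. At the same sizes, domains with an anchor of a member held 6.59 and 9.97 loops per Mb, and domains with neither role 5.27 and 7.11. Skipped domains also held anchors of loops to their surroundings. Anchors of loops that left the domain numbered 10.2 per Mb in skipped domains of Replicate 1 and 15.4 in those of Replicate 2, against 8.46 and 12.4 in domains with neither role. Domains holding an anchor of a member had 18.8 and 25.8 per Mb, which includes the anchors that placed them in this class. All unskipped domains together had 10.6 and 17.2 per Mb, above the skipped ones, so the direction depends on whether these are included.

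Loops left skipped domains also for the anchors of the members themselves. In 46.7% of members of Replicate 1 (387 loops) and 56.4% of members of Replicate 2 (1039 loops), at least 1 anchor had another loop that ended in a skipped domain. In 13.3% and 21.5% both anchors had one. The 2 anchors reached the same site within a skipped domain in 63 members of Replicate 1 (7.61%) and 266 members of Replicate 2 (14.4%), forming a triangle of 3 joined sites. Passing over a domain and contacting it were thus not exclusive.

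A minority of skipped domains held many loops. The skipped domain with the most loops in Replicate 1, chr10:16060001-16410000 (350 kb), held 7 loops and 2 sub-domains. It was passed over by 1 member of 410 kb with 16 contacts (5.27 times expected), whose right anchor adjoined its end. The same stretch was a sub-domain in Replicate 2. In Replicate 2, chr2:213350001-213750000 (400 kb) held 13 loops and 6 sub-domains, and was passed over by 1 member of 420 kb with 11 contacts (5.29 times expected). In Replicate 1 a level 0 domain with nearly the same boundaries (chr2:213340001-213750000) was present and was not skipped.

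Sub-domains were less frequent in skipped domains than in other domains of their size, by less than the loops were. They were found in 12.6% of skipped domains in Replicate 1 (interval 10.4 to 15.1%) and 15.5% in Replicate 2 (interval 13.7 to 17.4%), against 15.9% and 19.4% of all unskipped domains. Of domains with neither role, 16.0% and 17.7% had one, so the gap in Replicate 2 was smaller against these. Skipped domains were themselves found again about as often as others at level 0, and somewhat more often when any level was allowed. Both boundaries lay within 10 kb of those of a level 0 domain of the other replicate for 31.9% of skipped domains in Replicate 1 and 31.5% in Replicate 2, against 33.6% and 32.1% of unskipped domains of the same sizes. With domains of any level in the other replicate, the shares were 52.7% and 53.2%, against 49.4% and 46.1%. The gap between the 2 pairs of shares for skipped domains is made up of domains whose counterpart was a sub-domain only.

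Among domains that were found again at level 0, many were skipped again. Of 244 such domains skipped in Replicate 1, 144 were skipped in Replicate 2 (59.0%, interval 52.8 to 65.0%), against 313 of 1887 that were not skipped in Replicate 1 (16.6%, interval 15.0 to 18.3%). Of 457 skipped in Replicate 2, 144 were skipped in Replicate 1 (31.5%, interval 27.4 to 35.9%), against 100 of 1674 (5.97%, interval 4.94 to 7.21%). The counterparts are not weighted for size here, and small domains were skipped more often in both replicates.

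Many members shared anchors with other loops. Their anchors overlapped an anchor of another loop in 78.4% of cases in Replicate 1 (interval 76.4 to 80.4%) and 84.7% in Replicate 2 (interval 83.5 to 85.9%), against 69.6% and 80.2% in other loops of the same length and anchor size. The difference was 6.66 ± 3.03 percentage points (SD, n = 2). With 10-kb anchors only it vanished in Replicate 1, at −0.00196 percentage points. Of the members, 40.6% in Replicate 1 and 54.7% in Replicate 2 shared an anchor with another member. At least 1 complete loop lay between the anchors of 57.0% of members in Replicate 1 and 66.9% in Replicate 2, against 39.5% and 54.1% of other loops of the same length and anchor size. In turn, a larger loop enclosed 18.6% of members in Replicate 1 and 28.3% in Replicate 2. This share was not computed for other loops, so it describes the members only.

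Skipping loops were found along all 10 chromosomes, somewhat more toward the ends than other loops. The median distance from the nearer chromosome end was 17.0% of chromosome length in Replicate 1 and 17.6% in Replicate 2, against 19.6% and 19.3% for other loops. Members made up 5.99% of loops within 10% of an end in Replicate 1 (interval 5.32 to 6.73%) and 8.24% in Replicate 2 (interval 7.61 to 8.93%). In the central zone from 40 to 50% they made up 4.53% (interval 3.73 to 5.50%) and 6.87% (interval 6.05 to 7.79%), so intervals overlapped. These shares are not weighted for loop length or anchor size. Median loop length was 100 kb within 10% of an end in both replicates, against 150 and 140 kb in the central zone. The share did not fall steadily inward, being lowest from 20 to 30%, at 4.39% and 6.57%, and 4.99% and 7.44% from 30 to 40%. Level 0 domains were smaller toward the ends, with a median of 170 kb in the terminal zone of Replicate 1 and 160 kb in that of Replicate 2, against 280 and 270 kb in the central zone. The part of domain size and of loop length in the share of members was not tested.

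Chromosomes did not keep their order between the replicates. In Replicate 1 the share of members ranged from 3.79% on chromosome 2 (68 of 1794 loops) to 6.16% on chromosomes 5 and 10. In Replicate 2 it ranged from 5.41% on chromosome 10 (91 of 1683 loops) to 8.38% on chromosome 5 (222 of 2650). Chromosome 10 was thus among the highest in Replicate 1 (interval 4.90 to 7.72%) and the lowest in Replicate 2 (interval 4.42 to 6.59%). Chromosome 5 was at or near the top in both (intervals 5.14 to 7.37% and 7.38 to 9.49%). Intervals of many chromosomes overlapped, so their order within a replicate is uncertain.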

How the data were processed

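Loops and domains of 2 biological replicates of B73 v04 leaf were analysed. The authors mapped Hi-C reads to B73 AGPv4 with Juicer, called loops with HICCUPS of Juicer tools 1.9.9 (Replicate 1) and 1.14.08 (Replicate 2), and called hierarchical domains with runHiC and HiTAD at default parameters, without pooling. The deposited loop lists give the count of contacts at each loop, not normalized, the expected signal around it, and a q-value (false discovery rate) for each of these expectations. The deposited domain lists give boundaries and level. They hold calls only, so unlisted loops were not measured, and contacts per loop set the precision.

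Members were found and compared in Python 3.11.15 (pandas 2.3.3, numpy 2.4.6, scipy 1.17.1), with plots from matplotlib 3.10.9. Other loops were weighted to the members' mix of 50-kb length class and anchor size, and domains to the skipped domains' 50-kb size classes. Loops and domains were named by rule: the 3 identical-anchor members with at least 20 contacts and the largest ratio, and in each replicate the member with the most skipped domains, the domain skipped by most members and the skipped domain with most loops. Members, lists and rules were chosen with earlier results of these data known. In a check of the code, 10 of 10 hand-made loops received their known class, which does not measure accuracy on real calls. Alternatives were other anchor, length, contact, false discovery rate, domain size and matching settings, and each replicate alone. Chr0, genes, repeats and sequence were not analysed here.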

Additional observations from a re-analysis of the deposited data

How the results depend on the processing

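Over 11 results, 118 alternatives were computed. A reversal could be counted only for results that are differences, and no mean difference reversed. In 86 the value moved by at most 1 SD between replicates, or a count by at most 1.5 times. With 2 replicates, leaving 1 out always keeps a value other than a count within 1 SD. Those alternatives therefore carry no information on stability. Replicate 2 held 10-kb anchors only, so that setting left most of its values unchanged. The SD over 2 replicates was 0 or close to 0 for some results, so small shifts count as moves.

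With 10-kb anchors only, the difference between skipped and other domains with a loop inside was −15.5 percentage points, that in ratio 0.452, that in loops called again −3.78 points, that in anchors at boundaries 24.9 points and that in shared anchors 2.26 points, and members lay 18.2% from the nearer end. In Replicate 1 alone the first of these was −10.6 points. Requiring at least 20 contacts gave a mean of 733.5 members, skipped domains of 120 kb, −21.1 points for a loop inside and 16.6% from the end. Counting only skipped domains of at least 100 kb gave 4.62% of loops, 92.1% of members skipping 1 domain, a size of 160 kb, −22.0 points for a loop inside, −4.38 points for loops called again and 19.0% from the end. With the other replicate's domains, the values were −18.3 points for a loop inside and 17.7% from the end. A limit of 400 kb gave 120 kb, −20.8 points and 16.8%, and a limit of 1 Mb gave 79.5% skipping 1 domain, 140 kb, −18.9 points and 19.1%. Whole anchors in the neighbouring domains gave −21.1 points and 17.9%, whole anchors of loops inside domains −20.4 points, and false discovery rates of at most 0.01 −20.1 points. Against unskipped domains without an anchor of a member, a comparison added after seeing the data, the difference in domains with a loop inside was −15.7 points. With identical anchors required, loops called again differed by −2.55 points. The causes were not tested.

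With each replicate left out in turn, the number of members was 828 to 1841. No paired analysis was possible because there is 1 condition. With 2 replicates and anchors of unequal size, differences between the lists carry no test.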
